A study of Rattus norvegicus with 42 samples.

Results

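The endothelin system of the rat retina is described here through its 7 genes, chosen by name: the peptide precursors Edn1, Edn2 and Edn3, the receptors Ednra and Ednrb, and the converting enzymes Ece1 and Ece2. They are 7 of the 32623 genes in the count table, and all 7 passed the filter on low counts that left 18094 genes for testing. Polyadenylated RNA of whole rat retina was sequenced as paired reads of 150 bases. Counts were analysed for 31 libraries: 5 of nanoceria plus light, 5 of vehicle plus light, 7 of light damage, 4 of nanoceria, 5 of vehicle and 5 of control.

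The animals were adult rats whose strain and age the labels do not give. Nanoceria plus light retinas received cerium oxide nanoparticles, which can take up reactive oxygen species, at 1 mM into the vitreous, and were kept under 15000 lux of light for 24 h. Vehicle plus light retinas received the vehicle and the same light, and light damage retinas received the light without an injection. Nanoceria and vehicle retinas had the injection without the light, and control animals received neither. The labels give neither the time between injection and light nor that between light and dissection.

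Endothelins are small vasoactive peptides. Each is cut out of a longer precursor, first by furin-type proteases and then by a membrane-bound endothelin converting enzyme, and acts on G-protein-coupled receptors of the A and B types. The A receptor of pericytes and smooth muscle mediates constriction, while the B receptor is found on endothelium, glia and pigment cells. In the mouse retina, Edn2 is known as a signal that stressed photoreceptors send to Müller glia, which carry the B receptor.

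The Edn2 promoter is shown because Edn2 was the member that changed most with light. The Edn1 promoter is shown because it belongs to a sister peptide gene that, like Edn3, was not called in any comparison. Both are the 250 bases before the RefSeq transcription start on build GRCr8, at chr5:139036326-139036575 on the plus strand for Edn2 and at chr17:22666688-22666937 on the minus strand for Edn1, read 5′ to 3′. The counts themselves were made on the older build rn6. Capitals mark matches to the motifs searched, on either strand.
Edn2: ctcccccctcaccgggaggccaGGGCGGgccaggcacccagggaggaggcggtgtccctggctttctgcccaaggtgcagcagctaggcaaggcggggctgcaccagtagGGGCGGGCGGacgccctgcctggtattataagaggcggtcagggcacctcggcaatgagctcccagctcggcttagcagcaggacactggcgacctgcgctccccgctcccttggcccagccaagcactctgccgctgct
Edn1: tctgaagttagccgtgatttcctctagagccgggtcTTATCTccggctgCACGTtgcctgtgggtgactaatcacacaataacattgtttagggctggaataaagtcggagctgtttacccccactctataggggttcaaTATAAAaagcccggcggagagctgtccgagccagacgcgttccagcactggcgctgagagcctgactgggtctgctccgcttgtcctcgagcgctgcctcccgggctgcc
The Edn2 window holds 3 GC boxes (GGGCGG), which begin 228, 140 and 136 bases before the start, the last 2 of them overlapping. A GC box occurs in 30.5% of the 33469 rat promoters of this length. The Edn1 window holds a TATA box (TATAAA) 110 bases before the start, found in 12.9% of promoters, the hypoxia response core ACGTG at 201 bases, found in 16.6%, and a GATA motif (AGATAA) at 214 bases, found in 10.3%. Neither window holds the AP-1 motif TGANTCA, the cyclic AMP response element TGACGTCA, the STAT motif TTCNNNGAA or the photoreceptor motif TAATCC. A match is a string of letters and not a site of binding, and variants of these strings were not searched. The Edn2 window has 69.6% G and C, and the Edn1 window 56.4%. Promoters were matched for 6 of the 7 members, all but Edn3.

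Total counts per library lay between 25158407 and 182162368, with a median of 106887932, and the lowest was light damage 1. Levels below are CPM, counts scaled to library size by the TMM method, which are not corrected for transcript length, so that levels are compared between groups and not between genes. The rod markers summed to 4803 to 21570 CPM in nanoceria plus light, 8891 to 20330 CPM in vehicle plus light, 10130 to 19190 CPM in light damage, 37830 to 57460 CPM in nanoceria, 40840 to 51300 CPM in vehicle and 30470 to 57690 CPM in control retinas, so every library carried the photoreceptor RNA that its label as retina calls for. In bulk RNA, fewer cells of a type and less RNA per cell cannot be told apart. Pigment epithelium markers were present in every library, at a summed 2695 to 5631 CPM, and lens markers reached 36720 CPM in vehicle 1. Vehicle 4 and 7, and light damage 4 and 7, were far closer to each other than other libraries of 1 group, with standard deviations of the log2 difference of 0.0763 and 0.086 against 0.253 for the next closest pair. Each pair may be repeat libraries of 1 retina, which was not tested. They differed by more than counting noise and were counted as separate samples, so that the 5 vehicle and 7 light damage libraries may stand for fewer animals. Summing each pair to 1 library ended or made no call for a member. Y-linked transcripts were high in 16 of the 31 libraries, in every group but unevenly. They were high in 3 of nanoceria plus light, 2 of vehicle plus light, 4 of light damage, 2 of nanoceria, 1 of vehicle and 4 of control. A term for them changed no call for a member. Nanoceria plus light 5 stood apart in several members and is named where it matters.

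Light raised Edn2 in each injection state. Edn2 had 2.15, 1.29, 2.53, 2.26, 1.21, 2.47 and 2.22 CPM in light damage 1 to 7, with a median of 2.22 CPM. In control retinas it had 0.138, 0.0915, 0.173, 0.0537 and 0.310 CPM. The lowest light damage library was thus well above the highest control. The difference was 3.74 ± 0.42 on the log2 scale (SE), or 13.4-fold with a 95% interval of 7.54 to 23.8 (edgeR adjusted p = 1.94e-07). Edn2 is a weak transcript without light, and its control values rest on 6 to 26 reads per library, against 44 to 353 in light damage.

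The same step was seen after injection. In vehicle plus light, Edn2 had 3.29, 5.23, 2.22, 2.01 and 2.13 CPM, against 0.364, 0.461, 0.239, 0.164 and 0.124 CPM in vehicle. In nanoceria plus light it had 2.37, 3.95, 2.60, 2.35 and 4.51 CPM, against 0.414, 0.260, 0.265 and 0.726 CPM in nanoceria. Neither pair of groups overlapped. Edn2 was higher by 3.45 ± 0.42 in vehicle plus light over vehicle, or 10.95-fold with an interval of 6.22 to 19.3 (edgeR adjusted p = 8.39e-07). In nanoceria plus light over nanoceria it was higher by 2.91 ± 0.44, or 7.53-fold with an interval of 4.14 to 13.7 (edgeR adjusted p = 2.93e-05).

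Across all groups, Edn2 lay between 1.21 and 5.23 CPM in the 17 light-exposed libraries and between 0.0537 and 0.726 CPM in the 14 without light. Averaged over the 3 injection states, light raised it by 3.37 ± 0.25, or 10.3-fold with an interval of 7.38 to 14.5 (edgeR adjusted p = 1.24e-11). The fitted rise was smallest in nanoceria and largest in uninjected retinas, but no difference between states was called. The light response of nanoceria minus uninjected retinas was -0.83 ± 0.56, that of vehicle minus uninjected -0.29 ± 0.54, and that of nanoceria minus vehicle -0.54 ± 0.56, all log2.

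**Figure D1:**
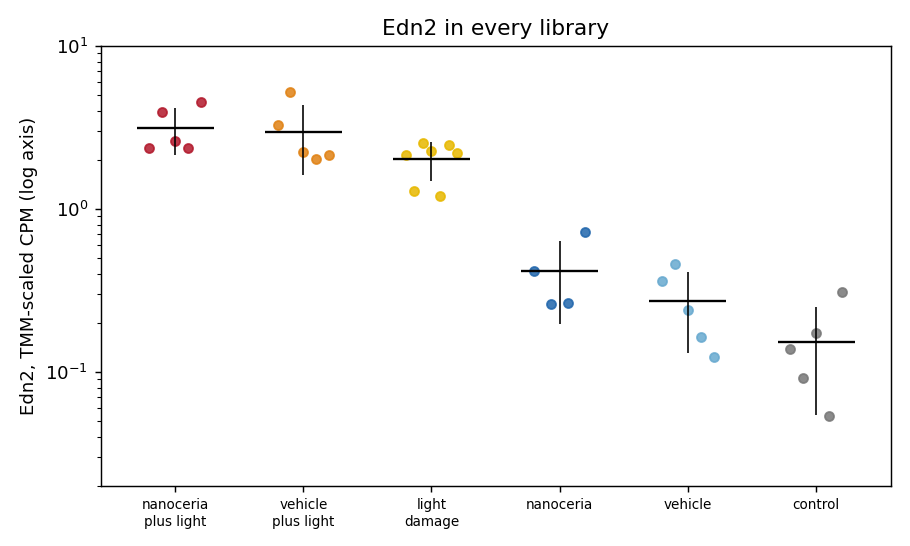
Edn2 level in every library, as TMM-scaled CPM on a log axis, by group. Dots are libraries, the bar is the group mean and the vertical line its SD. The 17 light-exposed libraries lie between 1.21 and 5.23 CPM and all 14 others between 0.0537 and 0.726 CPM.

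Injection without light left Edn2 uncalled. Vehicle exceeded control by 0.85 ± 0.43 (edgeR adjusted p = 0.629), nanoceria exceeded control by 1.48 ± 0.44 (edgeR adjusted p = 0.0715) and nanoceria exceeded vehicle by 0.62 ± 0.42. The nanoceria difference from control was called without control 6, at 1.95 ± 0.46 (edgeR adjusted p = 0.0213), and by the Wald test of DESeq2 at 1.51 ± 0.44 (adjusted p = 0.019). Among light-exposed retinas, nanoceria plus light stood 0.08 ± 0.37 above vehicle plus light, a fold between 0.643 and 1.74. Vehicle plus light stood 0.56 ± 0.34 above light damage (edgeR adjusted p = 0.689), and nanoceria plus light stood 0.65 ± 0.34 above light damage (edgeR adjusted p = 0.753).

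The other precursor genes were not called in any comparison. Edn1, the chief endothelin of vascular endothelium, averaged 4.19 ± 1.14 CPM in nanoceria plus light, 4.70 ± 0.61 in vehicle plus light, 3.99 ± 0.60 in light damage, 4.14 ± 0.11 in nanoceria, 4.54 ± 0.40 in vehicle and 4.68 ± 0.93 in control (SD, n = 4 to 7). Light damage and control overlapped, at 3.18 to 4.78 CPM against 3.70 to 6.01 CPM, and the difference was -0.22 ± 0.14 (edgeR adjusted p = 0.279). Averaged over injection states, light shifted Edn1 by -0.05 ± 0.09 (edgeR adjusted p = 0.681).

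Edn3, a peptide that in other tissues guides cells of the neural crest, including pigment cells, through the B receptor, varied widely between libraries. It had 59.9, 47.6, 47.5, 53.8 and 9.31 CPM in nanoceria plus light, against 43.8, 50.5, 56.6 and 54.2 CPM in nanoceria. It had 41.4, 59.7, 69.0, 47.4, 77.2, 32.9 and 46.7 CPM in light damage, against 43.6, 33.5, 57.7, 44.7 and 33.4 CPM in control. Nanoceria plus light 5 was far below all others, and the groups otherwise overlapped. The difference was 0.33 ± 0.29 for light damage over control (edgeR adjusted p = 0.487) and -0.23 ± 0.33 for nanoceria plus light over nanoceria, or 0.03 ± 0.25 without nanoceria plus light 5 (edgeR adjusted p = 0.968).

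Both receptor genes were higher in light damage than in control. Ednrb, the B receptor, had 46.8, 47.3, 65.2, 51.8, 76.3, 51.8 and 52.1 CPM in light damage, against 40.1, 28.2, 43.4, 40.3 and 35.6 CPM in control. The groups did not overlap. The difference was 0.58 ± 0.15 (edgeR adjusted p = 0.00645). Ednra, the A receptor, had 15.9, 12.8, 16.5, 15.8, 20.4, 14.1 and 15.8 CPM in light damage, against 13.2, 8.59, 13.8, 10.6 and 9.84 CPM in control, with 1 light damage library below the 2 highest controls. The difference was 0.50 ± 0.15 (edgeR adjusted p = 0.0152), but it was 0.42 ± 0.16 and no longer called without control 2 (edgeR adjusted p = 0.0578).

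With Edn2, 3 of the 7 members were therefore called in light damage against control, all higher, beside 22.5% of all genes tested in either direction and 11.9% as higher ones. The groups of Edn2 and of Ednrb did not overlap. How many of all genes have groups that do not overlap was not counted, in this or any other comparison. In vehicle plus light against vehicle, Edn2, higher, was the only member called, beside 16.8% of all genes and 9.67% as higher ones. In nanoceria plus light against nanoceria 3 members were called, 1 higher and 2 lower, beside 13.9% of all genes, 8.15% higher and 5.78% lower. Averaged over injection states 2 were called, Edn2 higher and Ece2 lower, beside 37.1% of all genes, 20.5% higher and 16.6% lower. Over 7 members, such counts mark nothing of the family as a whole.

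Neither receptor was called with light after vehicle. Ednrb had 46.9, 67.2, 52.7, 66.5 and 44.5 CPM in vehicle plus light, against 43.2, 64.9, 43.6, 52 and 53.3 CPM in vehicle, a difference of 0.11 ± 0.16. Ednra had 15.9, 14.0, 12.1, 12.8 and 13.46 CPM in vehicle plus light, against 13.4, 16.9, 12.1, 9.80 and 10.45 CPM in vehicle, a difference of 0.12 ± 0.16 (edgeR adjusted p = 0.69). In both genes the groups overlapped across most of their range.

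After nanoceria, Ednra fell with light. It had 13.55, 11.1, 17.9, 12.9 and 9.25 CPM in nanoceria plus light, against 16.5, 21.9, 18.5 and 21.0 CPM in nanoceria. All but 1 light-exposed library lay below the nanoceria range. The difference was -0.59 ± 0.17 (edgeR adjusted p = 0.0184). It was not called without nanoceria plus light 5 (-0.49 ± 0.17, edgeR adjusted p = 0.0534), without nanoceria 2 (-0.53 ± 0.18, edgeR adjusted p = 0.0722) or without nanoceria 5 (-0.55 ± 0.19, edgeR adjusted p = 0.0585), nor with the libraries of both groups alone (edgeR adjusted p = 0.0902) or by limma-voom (adjusted p = 0.0534). Ednrb had 54.25, 63.6, 60.2, 54.25 and 33.1 CPM in nanoceria plus light, against 64.7, 73.5, 57.4 and 73.4 CPM in nanoceria, and the difference of -0.34 ± 0.17 was not called (edgeR adjusted p = 0.211).

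The light response of Ednra differed between nanoceria and uninjected retinas. Nanoceria minus uninjected was -1.09 ± 0.23 (edgeR adjusted p = 0.0266), the 1 member called in a comparison in which 0.409% of all genes were, 0.332% as lower ones. Leaving out 1 library at a time, it was called in 14 of 21 fits, with edgeR adjusted p up to 0.0741, and it was not called without control 2, light damage 5, nanoceria 2, nanoceria 3, nanoceria 5, nanoceria plus light 2 or nanoceria plus light 5. The same difference in Ednrb was -0.92 ± 0.23 (edgeR adjusted p = 0.0741). For Ednra, vehicle minus uninjected was -0.38 ± 0.22 (edgeR adjusted p = 0.92) and nanoceria minus vehicle was -0.71 ± 0.23, neither of them called. No member was called for vehicle minus uninjected, where 0.0442% of genes were called, or for nanoceria minus vehicle, where 0% were. At an unadjusted p under 0.05 these held 2 and 1 of the 7 members, beside 1059 and 415 of the 18094 genes tested. DESeq2 and limma-voom called 0 members.

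Without light, nanoceria retinas had more of both receptor transcripts than control retinas. Ednrb had 64.7, 73.5, 57.4 and 73.4 CPM in nanoceria, against 28.2 to 43.4 CPM in control, and Ednra had 16.5 to 21.9 CPM in nanoceria, against 8.59 to 13.8 CPM in control. Neither pair of groups overlapped, and how many of all genes share this was not counted. Ednrb was higher by 0.84 ± 0.17 (edgeR adjusted p = 0.00767) and Ednra by 0.80 ± 0.17 (edgeR adjusted p = 0.00968). They are 2 of 7 members in a comparison in which 2.46% of all genes were called, 1.73% as higher ones. The same control and nanoceria libraries enter the light comparisons above, so the values are not independent of them.

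Against vehicle, the nanoceria receptors were not called. Ednra stood 0.64 ± 0.17 higher (edgeR adjusted p = 0.329), although limma-voom with sample weights called it at 0.84 ± 0.13 (adjusted p = 0.000378). In vehicle against control Ednrb stood 0.46 ± 0.16 higher (edgeR adjusted p = 0.492), and limma-voom called it at 0.59 ± 0.13 (adjusted p = 0.00927) and Ece1 at -0.26 ± 0.06 (adjusted p = 0.0135). edgeR called 0 members in vehicle against control, where 0.0221% of genes were called, and 0 in nanoceria against vehicle, where 0% were. Each held 2 of the 7 members at an unadjusted p under 0.05, beside 1462 and 1021 of the 18094 genes tested. DESeq2 called 0 members in both.

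**Figure D2:**
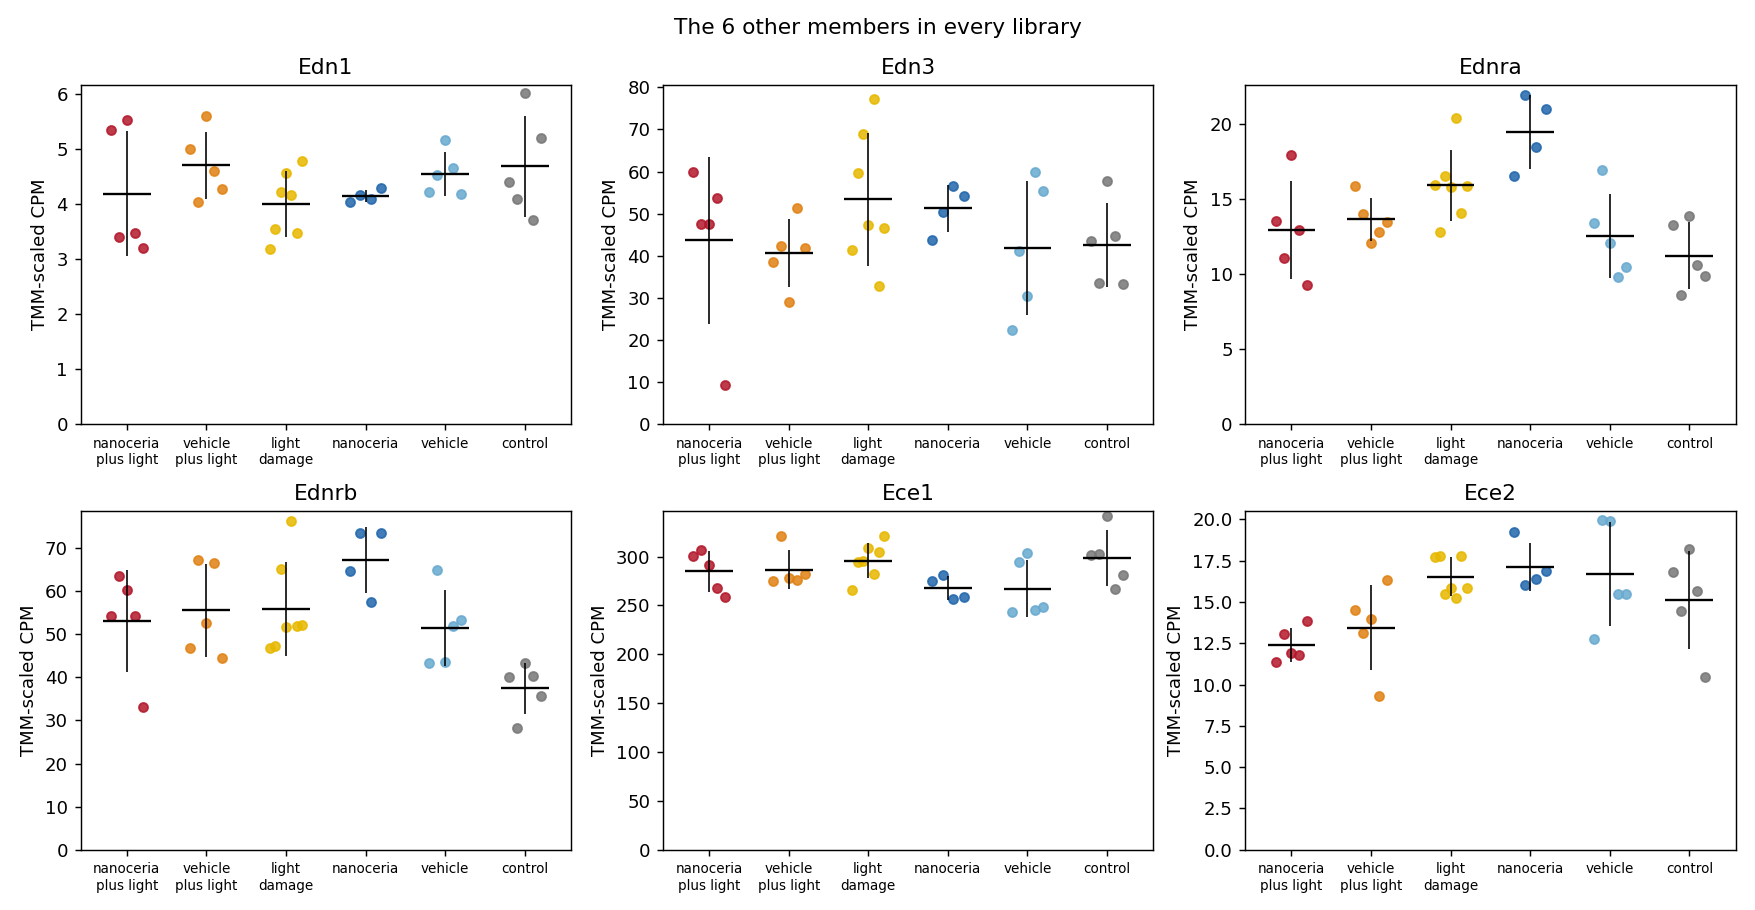
Levels of the other 6 members in every library, as TMM-scaled CPM, by group. Dots are libraries, bars are group means and vertical lines SDs. Ednrb is lowest in control and Ednra highest in nanoceria. Nanoceria plus light 5 is the lowest library of its group for Edn1, Edn3, Ednra, Ednrb and Ece1.

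In nanoceria retinas, markers of microglia and macrophages and of endothelium stood higher together with the receptors. The 9 measured microglia and macrophage markers, none at 0, summed to 222 to 341 CPM in nanoceria, against 142 to 192 CPM in control, and 7 of the 9 were called higher, with a median of 1.04. With light after nanoceria they summed to 151 to 279 CPM, against those 222 to 341 CPM in nanoceria, and 4 were called lower. The 9 measured endothelial markers, none at 0, summed to 635 to 760 CPM in nanoceria, against 497 to 642 CPM in control, with 2 called higher. Endothelial markers summed to 439 to 629 CPM in nanoceria plus light, with 1 called higher and 2 lower against nanoceria.

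With a term for the mean log2 level of the microglia and macrophage markers, nanoceria over control was 0.44 ± 0.22 for Ednra (edgeR adjusted p = 0.521) and 0.43 ± 0.22 for Ednrb (edgeR adjusted p = 0.519). With the endothelial term it was 0.41 ± 0.16 for Ednra (edgeR adjusted p = 0.383) and 0.46 ± 0.17 for Ednrb (edgeR adjusted p = 0.355). Nanoceria plus light over nanoceria in Ednra was -0.34 ± 0.19 with the microglial term (edgeR adjusted p = 0.3), -0.32 ± 0.15 with the endothelial term (edgeR adjusted p = 0.208) and -0.44 ± 0.17 with a term for pigment epithelium (edgeR adjusted p = 0.107). The Ednra difference in light response between nanoceria and uninjected retinas became -0.86 ± 0.23 with the microglial term (edgeR adjusted p = 0.249) and -0.65 ± 0.21 with the endothelial term (edgeR adjusted p = 0.433). None of these receptor differences was called with the microglial or the endothelial term. With the pigment epithelium or the pericyte term both receptors were still called in nanoceria over control. All these terms were chosen after seeing the data. The microglial and endothelial markers themselves stood higher in nanoceria than in control, so these fits cannot separate the markers from the group. What part of each result these cells account for was not tested.

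In light damage over control, marker lists differed in the direction of their called genes. Of 5 astrocyte markers 2 were called higher and 0 lower. Of 10 ciliary body and iris markers 1 was called higher and 0 lower, as was 1 of 4 blood markers. The pericyte, ganglion cell and lens lists held no called gene. Endothelial markers summed to 484 to 538 CPM in light damage, against 497 to 642 CPM in control, with 4 called higher and 1 lower. Of the pigment epithelium markers 4 of 10 were called lower, and of the microglia and macrophage markers 1 was called higher and 2 lower. Of the 10 Müller glia markers 1 was called higher and 5 lower, and of the 10 rod markers 9 were called lower. Of the 8 cone markers 1 was called higher and 1 lower. No term for Müller glia, astrocytes, rods or cones was fitted. Ednrb was higher by 0.84 ± 0.14 with the pigment epithelium term (edgeR adjusted p = 0.000143), by 0.60 ± 0.14 with the microglial term (edgeR adjusted p = 0.00198) and by 0.40 ± 0.13 with the endothelial term (edgeR adjusted p = 0.0274). Ednra was higher by 0.52 ± 0.14 with the microglial term (edgeR adjusted p = 0.00756), and by 0.33 ± 0.12 with the endothelial term, which was not called (edgeR adjusted p = 0.0596).

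Of the converting enzymes, Ece2 was lower in nanoceria plus light. Ece2, a form found in neural tissue, had 11.35, 13.0, 11.9, 11.8 and 13.8 CPM in nanoceria plus light, against 19.2, 16, 16.4 and 16.9 CPM in nanoceria. The groups did not overlap, and how many of all genes share this was not counted. The difference was -0.47 ± 0.14 (edgeR adjusted p = 0.0259), which only 4 of 9 fits without 1 library called. The call was lost without nanoceria 1 or 5 and without nanoceria plus light 1, 3 or 4, where the edgeR adjusted p lay between 0.0538 and 0.0939. It was also lost with library size alone (edgeR adjusted p = 0.0594). The difference was -0.42 ± 0.16 with the endothelial term (edgeR adjusted p = 0.114), -0.46 ± 0.15 with the pigment epithelium term (edgeR adjusted p = 0.0624) and -0.50 ± 0.18 with the microglial term (edgeR adjusted p = 0.0785), none of them called.

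Ece2 was not called in the uninjected retinas or after vehicle. It had 15.2 to 17.8 CPM in light damage, against 10.4 to 18.2 CPM in control, and light damage stood 0.13 ± 0.12 higher (edgeR adjusted p = 0.531). The difference of vehicle plus light over vehicle was -0.31 ± 0.13 (edgeR adjusted p = 0.116). Averaged over injection states light lowered Ece2, by -0.22 ± 0.08 on the log2 scale (edgeR adjusted p = 0.027), which was not called without control 4, vehicle 2, vehicle 3 or nanoceria 1 or with library size alone (-0.14 ± 0.08, edgeR adjusted p = 0.158) or the pigment epithelium term (-0.21 ± 0.09, edgeR adjusted p = 0.109). Nanoceria plus light lay wholly below light damage, but the difference of -0.41 ± 0.13 was not called (edgeR adjusted p = 0.289) in a comparison in which 0.0608% of genes were.

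Ece1, the main enzyme that cuts the endothelin precursors, was not called by edgeR in any comparison. It averaged 285 ± 21 CPM in nanoceria plus light, 287 ± 20 in vehicle plus light, 296 ± 18 in light damage, 268 ± 12 in nanoceria, 267 ± 29 in vehicle and 299 ± 28 in control (SD, n = 4 to 7). Light averaged over injection states shifted it by 0.06 ± 0.04 (edgeR adjusted p = 0.3), and with library size alone in place of TMM by 0.13 ± 0.05, which was called (edgeR adjusted p = 0.0451).

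Between the light-exposed groups, no member was called by edgeR. For nanoceria plus light over vehicle plus light, 0% of genes were called, 0 members and 257 genes had an unadjusted p under 0.05, and DESeq2 and limma-voom called 0 members. In vehicle plus light against light damage 0.122% of genes were called. There and in nanoceria plus light against light damage, 1 member each had an unadjusted p under 0.05. The genes at that threshold were 1482 and 1223 of the 18094 tested. DESeq2 and limma-voom called 0 members in both.

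**Figure D3:**
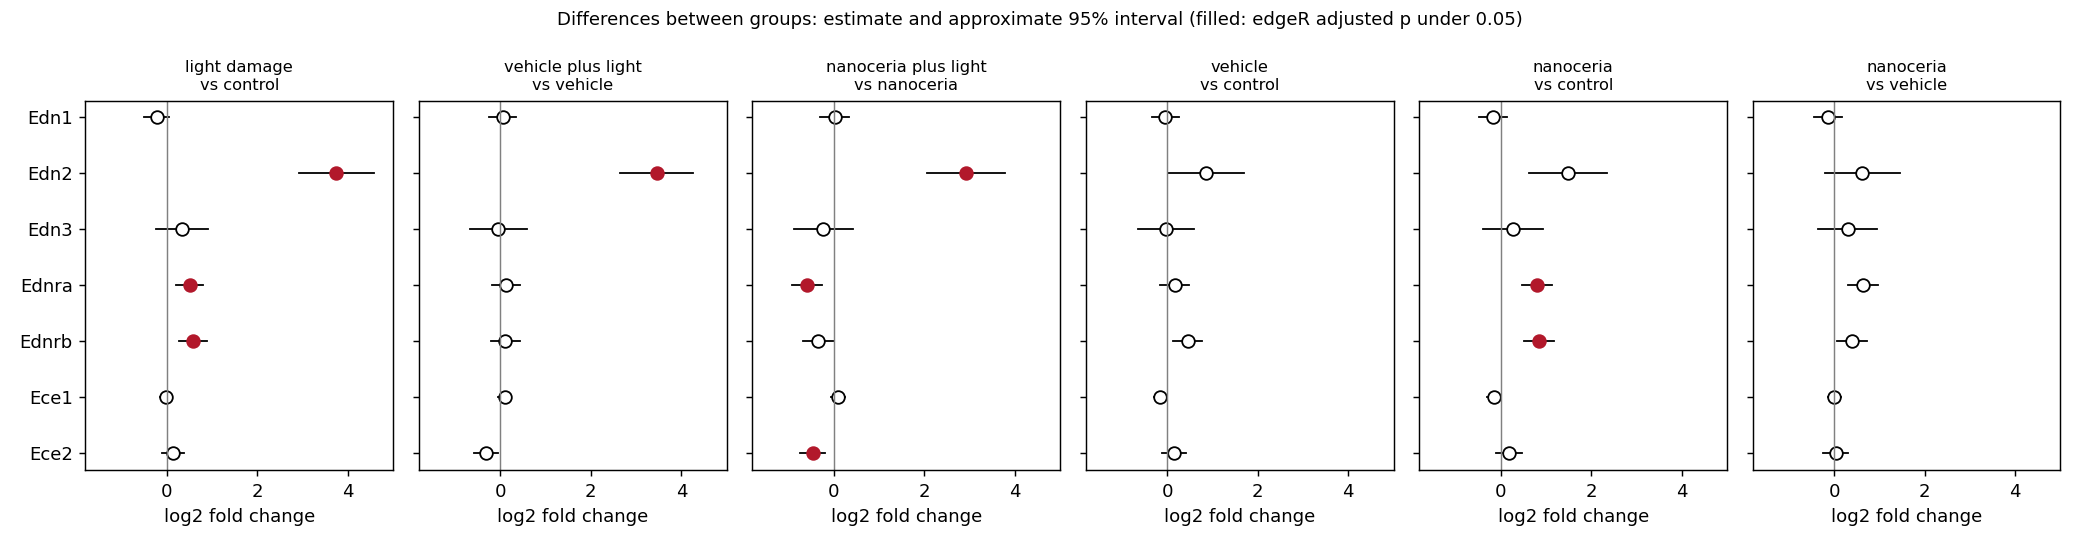
Log2 fold changes of the 7 members in 6 comparisons, the 3 light comparisons and the 3 injection comparisons without light, with approximate 95% intervals as lines. Filled points were called by edgeR at an adjusted p under 0.05. Edn2 stands far right of 0 in each light comparison, and the receptors differ between nanoceria and control.

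Within groups, members varied in step with different genes. The measure is Pearson's r of log2 CPM centred on each group over the 31 libraries, given as a description, since the points share library depth and tissue content. For Edn3 the most alike genes were Oca2 (r = 0.909), Dct (0.901), Tyrp1 (0.9), Pmel (0.885) and Mlana (0.882), which all act in the melanosome, the pigment organelle. Without nanoceria plus light 5, the lowest library in Oca2, r with Oca2 was 0.798 and r with Mlana 0.81. For Ednrb they were Mcoln3 (0.869), Cdh19 (0.847), Slc45a2 (0.832), Oca2 (0.831) and Tmem176b (0.828), and r with Oca2 was 0.761 without that library.

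**Figure D4:**
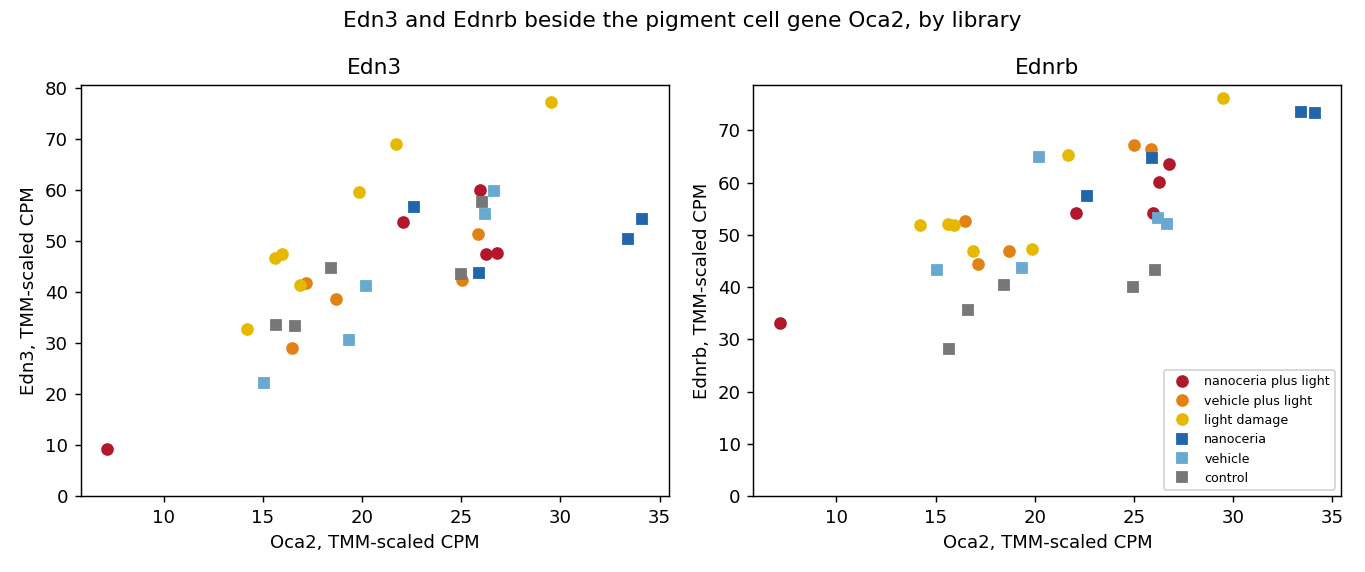
Edn3 and Ednrb against Oca2, a melanosome gene, in the 31 libraries as TMM-scaled CPM, coloured by group. Both rise with Oca2, r = 0.909 and 0.831 within groups, and nanoceria plus light 5 sits at the low end.

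Edn3 and Ednrb themselves had r = 0.71, Ednra and Ednrb 0.57, and Edn2 and Ednrb -0.0015. Oca2 was not called in light damage against control (-0.09 ± 0.24, edgeR adjusted p = 0.844) or in nanoceria against control (0.51 ± 0.27, edgeR adjusted p = 0.397). For Ednra the list was Mgp (0.789), Pamr1 (0.752), Sdf4 (0.75), Tm4sf1 (0.75) and Tspan11 (0.746). With the mean of the endothelial markers, Ednra had r = 0.644, Ednrb 0.632 and Edn3 0.556. For Edn3 this was 0.694 in the 17 light-exposed libraries and 0.147 in the 14 without light. With the pericyte and smooth muscle markers, Ednra had 0.227, Ednrb 0.49 and Edn3 0.665. These were 0.515, 0.734 and 0.873 in the light-exposed libraries, but -0.143, 0.0233 and 0.208 in those without light. With the pigment epithelium markers, Ednra had 0.428, Ednrb 0.605 and Edn3 0.481. For Ednra this was 0.18 in the light-exposed libraries and 0.67 in those without light.

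Edn2 varied most like A2m (0.716), a protease inhibitor of plasma and glia, Eml2 (0.691), Il17rb (0.627), Gfap (0.627), the intermediate filament of astrocytes and reactive Müller glia, and Vars (0.602). The likeness to Gfap was seen in the libraries without light, r = 0.814 over 14, and was weak in the light-exposed ones, r = 0.143 over 17. Its r with the rod markers was -0.00953. Ece2 was most like Tmem25 (0.861), Cacng5 (0.858), Coro2b (0.857), Kcnab2 (0.853) and Zer1 (0.851), and had 0.743 with the ganglion cell markers. Ece1 was most like R3hcc1 (0.78) and Atg7 (0.743), and Edn1 most like Paqr6 (0.784) and Arsa (0.756).

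Genes around the endothelins were counted from lists. Of all genes, 22.5% were called in either direction in light damage over control, 16.8% in vehicle plus light over vehicle and 13.9% in nanoceria plus light over nanoceria, and each count is read against these shares. Among 12 genes of precursor cleavage and peptide breakdown, 2 were higher and 1 lower in light damage over control, 2 and 1 in vehicle plus light over vehicle, and 3 and 0 in nanoceria plus light over nanoceria. In light damage that is close to the share over all genes. Ecel1, a relative of the converting enzymes found in neurons, had 1.956 to 5.16 CPM in light damage, against 0.627 to 1.04 CPM in control. The difference was 2.02 ± 0.28 (edgeR adjusted p = 4.19e-06), and it was 1.78 ± 0.29 in vehicle plus light over vehicle and 1.34 ± 0.31 in nanoceria plus light over nanoceria. Ide, which degrades small peptides, was higher by 0.51 ± 0.07, 0.49 ± 0.08 and 0.57 ± 0.09 in the same 3 comparisons.

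Below the receptors, of 26 genes of Gq signalling 2 were higher and 1 lower in light damage, 3 and 0 in vehicle plus light, and 2 and 0 in nanoceria plus light. These are smaller shares than those over all genes in each comparison, and the genes named here are those with the smallest p. Gnaq, the G protein subunit itself, was higher by 0.34 ± 0.07, 0.26 ± 0.08 and 0.33 ± 0.08, and Rock2, a kinase of the contractile response, by 0.36 ± 0.07, 0.31 ± 0.08 and 0.27 ± 0.08. The median of the list stood near that of all genes, at 0.07 against -0.01 in light damage over control.

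Among 16 known regulators of endothelin transcription, 6 were higher in each of the 3 light comparisons, with 1 lower in vehicle plus light. Fosl1, an AP-1 subunit, had 44.2 to 95 CPM in light damage, against 1.73 to 2.704 CPM in control. It was higher by 4.86 ± 0.35, 3.98 ± 0.34 and 3.94 ± 0.37, and Jun, another AP-1 subunit, by 1.44 ± 0.21, 1.70 ± 0.23 and 1.82 ± 0.25.

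Of 30 tested genes of other vasoactive systems, 7 were higher and 2 lower in light damage, 7 and 2 in vehicle plus light, and 6 and 4 in nanoceria plus light. Bdkrb2, a kinin receptor, had 1.88 to 5.56 CPM in light damage, against 0.207 to 0.691 CPM in control, and was higher by 2.62 ± 0.29, 1.51 ± 0.29 and 1.39 ± 0.31. Ptgs2, which makes prostaglandins, was higher by 1.51 ± 0.17, 1.12 ± 0.18 and 0.87 ± 0.19.

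The 12 genes of the Müller glia survival factor axis moved most, with 8 higher and 0 lower in each of the 3 light comparisons. Their medians were 1.90 in light damage, 1.5 in vehicle plus light and 1.18 in nanoceria plus light. Whether Edn2 bears on these genes was not tested. The medians of all genes were -0.01, 0.02 and 0.04 in the same comparisons. Socs3, an inhibitor of cytokine signalling, had 27.6 to 50.4 CPM in light damage, against 1.56 to 2.47 CPM in control, and was higher by 4.49 ± 0.27, 4.08 ± 0.27 and 3.60 ± 0.28. Stat3, the transcription factor that cytokines activate in glia, was higher by 1.84 ± 0.13, 1.67 ± 0.13 and 1.54 ± 0.14. These lists were chosen with earlier results in view, so their counts are a description.

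**Figure D5:**
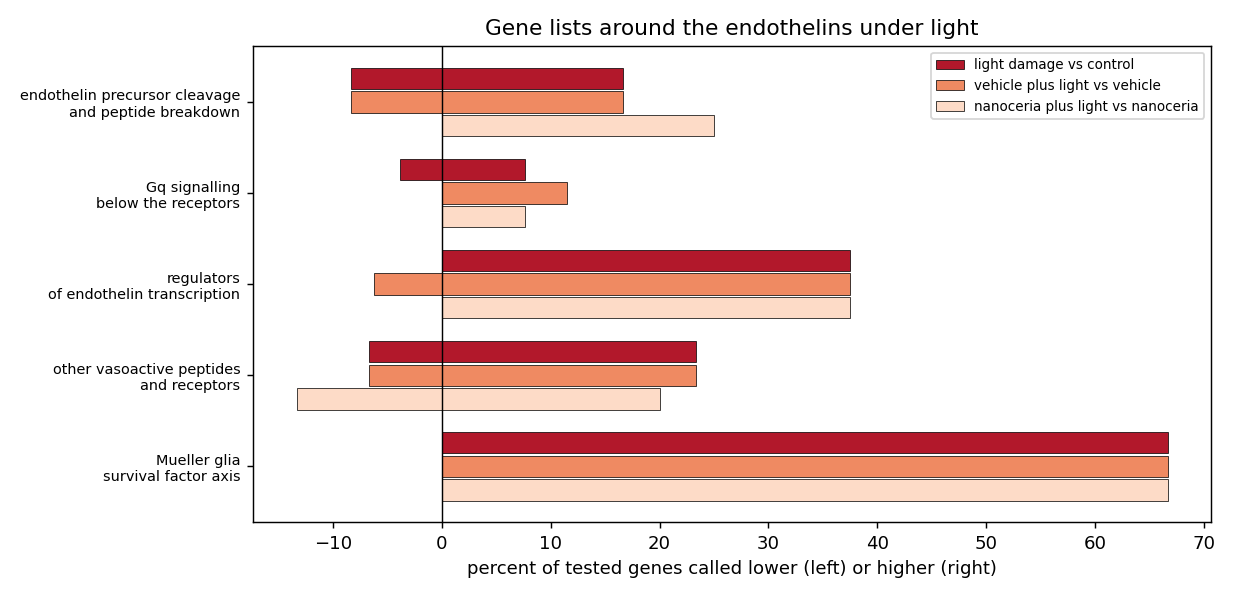
Percent of the tested genes of each pathway list that edgeR called higher (bars to the right of 0) or lower (bars to the left) with light, for light damage over control, vehicle plus light over vehicle and nanoceria plus light over nanoceria. The Müller glia axis has the longest bars, with 8 of 12 genes higher in each comparison, and Gq signalling the shortest.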

How the data were processed

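RNA of 31 rat retina libraries, of 42 labelled samples, was analysed, and the remaining 11 were not analysed here. The deposited table holds raw read counts per gene as the authors made them, whole numbers with no normalization. Per the submitters' processing notes, the tools were Trimmomatic 0.39, STAR 2.7.9a, featureCounts of Subread 2.0.1, DESeq2 1.30.1 and R 4.0, with build rn6. How strand and multi-mapping reads were treated, and which annotation was used, is not given in the sources used here, so reads from overlapping or antisense genes cannot be separated.

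Fits used edgeR 4.0.16 in R 4.3.3, with its quasi-likelihood test (robust, TMM scaling, 1 coefficient per group, all 31 libraries), after filterByExpr (count of at least 10, total of at least 15). It kept 18094 of 32623 genes, and 9389 had 0 counts throughout. Adjustment followed Benjamini and Hochberg over the genes tested, and calls are at an adjusted p under 0.05. Differences are log2 with their SE, and 95% intervals use the normal approximation. Edn2 rests on few reads in retinas without light, which widens its interval, and Edn1 on 65 to 769 reads per library. The labels number biological replicates and the design text counts animals per group, but neither ties each library to an animal, and p-values measure the spread between these libraries.

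The members and lists were chosen with earlier results of these data known. The genes named are the 7 members, the 2 genes of each pathway list with the smallest adjusted p for light averaged over injection states, and the 5 genes most alike to each member in centred log2 CPM (prior count 2, mean of at least 1). Oca2 was plotted after its values were seen, as the gene most like Edn3. The planned permutation test for members below the filter was not needed. Alternatives were other scalings, no filter, only the groups compared, DESeq2 1.42.0, limma-voom (limma 3.58.1), a replicate block, a Y-linked term, summed close pairs, each library left out, and, chosen after seeing the data, terms for pigment epithelium, pericyte, endothelium and microglia markers. The scripts were tested on simulated counts. Promoters come from RefSeq on GRCr8.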

Additional observations from a re-analysis of the deposited data

Results flagged for a closer look

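In nanoceria plus light 5, Edn3 had 9.31 CPM, far below the other libraries of its group, with a gap of 0.875 of the group's range against a critical value of 0.71. Ednrb was also low there, at 33.1 CPM, with a gap of 0.757. In vehicle plus light 2, Ece1 had 321 CPM, above the others with a gap of 0.818, and without that library Ece1 in vehicle plus light over vehicle was 0.06 ± 0.08. Chance flags about 1 in 20 groups, and 3 were flagged among 42 pairs of a member and a group. Without nanoceria plus light 5, Ednrb in nanoceria plus light over nanoceria was -0.21 ± 0.16 (edgeR adjusted p = 0.444). The light response of Ednra was lower in nanoceria than in uninjected retinas by a tested difference of -1.09 on the log2 scale.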

How the results depend on the processing

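The rise of Edn2 with light and that of Ednrb in light damage were called in every alternative run and with any library left out. Across 1176 member values under 13 other settings, 22 lost a call, 11 gained one and 0 reversed a called direction. With a library left out, of 1302 values 20 lost a call and 3 gained one, and 0 reversed. Uncalled values crossed 0 in 141 cases, none larger than 0.56 in log2. The main numbers of members called moved as follows. For the light response of nanoceria minus uninjected, 1 in the fit reported, they were 2 with DESeq2, 2 with limma-voom, 2 with the pigment epithelium or the pericyte term, 0 with the endothelium or the microglia term and 0 to 2 without 1 library. Limma-voom gave 2 in vehicle plus light over vehicle, adding Ece1 (0.19, adjusted p = 0.0352), 2 in vehicle over control and 1 in nanoceria over vehicle, and leaving out a library gave 1 to 2 in vehicle plus light over vehicle, where Ece2 was called without vehicle 1 (-0.40, edgeR adjusted p = 0.044). In nanoceria plus light over nanoceria, 1 was called with the pigment epithelium term, 1 with the endothelium or the microglia term and 1 to 3 without 1 library. In nanoceria over control, 0 were called with the endothelium or the microglia term. Light averaged over injection states gave 1 to 2 without 1 library.

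Same-numbered libraries did not deviate together (median r 0.078 over 60 pairs, lowest -0.353), so the numbers are not shown to pair animals. With the replicate number as a block, 1 member was called in the averaged light effect, where Ece2 was lost (edgeR adjusted p = 0.0564), 1 in nanoceria over control, where Ednra was lost (0.75 ± 0.19, edgeR adjusted p = 0.0584), and 0 for nanoceria minus uninjected, where Ednra was lost (-1.10 ± 0.25, edgeR adjusted p = 0.0803). Ece2 in nanoceria plus light over nanoceria was also lost (edgeR adjusted p = 0.0692), and counts elsewhere stayed within 1.5 times. Library size alone shifted the median of all genes by 0.115 in vehicle plus light over vehicle. The fit of only the groups compared was not run for the averaged light effect, which uses all 6 groups. The cause of these changes was not tested. Depth limits Edn2 most, at 6 to 80 reads per library without light, and Edn1 next, with 65 reads in light damage 1.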
